A study of Saccharomyces cerevisiae with 40 samples.

Results

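The RNAs described here were the small nuclear, small nucleolar and related stable noncoding RNAs of budding yeast. They were taken by row name, as every row whose name starts with snR, plus LSR1, NME1, RPR1, SCR1 and TLC1. This gave 85 of the 7127 rows of the steady-state and RATE-Seq tables, with 47 box C/D snoRNAs, 29 box H/ACA snoRNAs, 6 rows for the spliceosomal snRNAs, 2 for the RNase P and RNase MRP RNAs and 1 for the RNA of the signal recognition particle (SRP). The telomerase RNA TLC1 was not analysed here.

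Box C/D snoRNAs guide 2'-O-methylation of ribosomal RNA and box H/ACA snoRNAs guide its pseudouridylation. A few of them, including the U3 copies snR17a and snR17b, the U14 RNA snR128, snR30 and snR10, are known for their part in cleaving the ribosomal RNA precursor. The spliceosomal snRNAs act in intron removal, RNase P (RPR1) trims the 5' ends of tRNA precursors, RNase MRP (NME1) cleaves precursor ribosomal RNA, and the SRP RNA (SCR1) is the scaffold of the particle that brings ribosomes to the endoplasmic reticulum. These RNAs work inside ribonucleoprotein particles and are long-lived, and most are made by RNA polymerase II, with SCR1, RPR1, snR6 and snR52 made by RNA polymerase III.

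The study compared yeast lacking Def1, a regulator of RNA polymerase II, with WT cells. Both strains were W303 grown to log phase in YPD, and the def1Δ strain, a single strain, carried KanMx in place of DEF1. Steady-state total RNA came from 2 def1Δ and 2 WT libraries of cells without label. Labeled RNA (RATE-Seq) came from cells given 4-thiouracil (4tU), a uracil analog that enters new RNA and allows its capture on streptavidin, for 6, 9, 12, 24 or 90 min, with 2 def1Δ and 2 WT libraries at each time except 12 min, which had 1 of each and carries no test. S. pombe cells had been added to the cells as a spike-in. The study calls the replicates biological, and p-values measure the spread between these libraries.

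The libraries held 9954503 to 14243535 counts in total RNA and 6026474 to 16318100 in labeled RNA. DEF1 had 2 and 2 counts in def1Δ total RNA, against 997 and 1959 in WT, and 0 to 4 counts in labeled def1Δ libraries, against 620 to 2378 in WT. Rows of ribosomal RNA, tRNA and the mitochondrial genome together held less than 1% of the counts of every library. The main scaling used here sets levels relative to the other RNAs of a library, so it does not measure RNA per cell.

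Sequences are shown 5' to 3' as the sense strand of the R64 genome (RefSeq), with T for U. The first set holds 6 of the 8 RNAs that changed in def1Δ total RNA, and its capitals mark TGATGA (the C box) in the first 20 bases and CTGA (the D box) in the last 20 bases of box C/D RNAs, and ACA 3 bases before the end of box H/ACA RNAs, wherever these letters occur.
snR189: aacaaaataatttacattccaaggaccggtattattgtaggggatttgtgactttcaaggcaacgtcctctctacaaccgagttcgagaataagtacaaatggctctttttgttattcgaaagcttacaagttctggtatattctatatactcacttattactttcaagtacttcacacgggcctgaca
snR41: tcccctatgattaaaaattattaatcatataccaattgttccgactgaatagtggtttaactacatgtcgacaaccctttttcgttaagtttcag
snR79: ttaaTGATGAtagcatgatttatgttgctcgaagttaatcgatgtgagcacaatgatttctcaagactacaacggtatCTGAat
snR51: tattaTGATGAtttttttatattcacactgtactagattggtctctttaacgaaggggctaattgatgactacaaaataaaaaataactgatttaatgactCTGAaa
snR45: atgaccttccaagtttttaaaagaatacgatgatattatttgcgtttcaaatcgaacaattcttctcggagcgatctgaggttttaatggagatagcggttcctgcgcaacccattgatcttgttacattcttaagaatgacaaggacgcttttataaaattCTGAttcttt
snR49: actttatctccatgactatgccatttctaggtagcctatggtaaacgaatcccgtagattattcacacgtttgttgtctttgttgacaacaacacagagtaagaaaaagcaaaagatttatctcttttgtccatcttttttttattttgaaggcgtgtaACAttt

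The second set stands for the classes and for the labeling results. Its capitals mark the same boxes, and in addition ATTTTTG, the Sm site letters, in snR14 (U4) and ACAGAGA, the box that pairs with the 5' splice site, in snR6 (U6).
snR52: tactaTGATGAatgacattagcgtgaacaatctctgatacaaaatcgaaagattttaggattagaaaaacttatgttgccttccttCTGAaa
snR24: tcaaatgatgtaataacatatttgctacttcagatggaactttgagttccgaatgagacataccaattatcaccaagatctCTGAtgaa
snR128: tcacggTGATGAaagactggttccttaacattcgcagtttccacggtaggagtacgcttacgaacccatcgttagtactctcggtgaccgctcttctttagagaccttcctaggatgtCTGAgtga
snR10: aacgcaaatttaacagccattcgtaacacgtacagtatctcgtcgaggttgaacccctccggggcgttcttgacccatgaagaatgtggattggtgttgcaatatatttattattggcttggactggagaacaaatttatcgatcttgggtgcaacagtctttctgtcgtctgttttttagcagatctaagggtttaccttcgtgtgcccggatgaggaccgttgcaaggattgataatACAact
snR14: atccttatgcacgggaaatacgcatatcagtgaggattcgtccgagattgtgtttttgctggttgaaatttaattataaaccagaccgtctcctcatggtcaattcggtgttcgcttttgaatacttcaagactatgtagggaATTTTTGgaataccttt
snR6: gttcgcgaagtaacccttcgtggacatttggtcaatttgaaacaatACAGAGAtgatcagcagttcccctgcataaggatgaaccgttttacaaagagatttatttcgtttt

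In the first set, snR189 lies at chrIII:178610-178798 (minus strand), snR41 at chrXVI:719148-719242 (minus strand), snR79 at chrXII:348427-348510 (minus strand), snR51 at chrXVI:718700-718806 (minus strand), snR45 at chrXVI:821732-821903 (plus strand) and snR49 at chrXIV:716120-716284 (plus strand). In the second, snR52 lies at chrV:431129-431220 (minus strand), snR24 at chrXIII:499984-500072 (minus strand) in an intron of ASC1, snR128 at chrX:139566-139691 (minus strand), snR10 at chrVII:345986-346230 (plus strand), snR14 at chrV:167427-167586 (minus strand) and snR6 at chrXII:366235-366346 (plus strand). The letters were searched on the sense strand only. TGATGA stood in the first 20 bases of 36 of 47 box C/D RNAs (76.6%), of 1 of 29 box H/ACA RNAs and of 0.980% of 6021 protein-coding genes. CTGA stood in the last 20 bases of 45 of 47 box C/D RNAs (95.7%) and of 9.65% of the coding genes. ACA 3 bases before the end stood in 14 of 29 box H/ACA RNAs (48.3%) and in 1.15% of the coding genes. The H box letters ANANNA were in all 29 box H/ACA RNAs, but also in the first 200 bases of 99.1% of 5886 coding genes, so these letters set nothing apart.

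In total RNA the 85 RNAs took 40.5% and 44.1% of the counts of the def1Δ libraries, against 38.0% and 30.9% in WT. SCR1 and snR17a held the first and second places in every total RNA library, in either order. SCR1 took 15.02% and 17.57% of all counts in def1Δ, against 9.55% and 7.88% in WT. The U3 RNA snR17a took 8.80% and 8.85% in def1Δ, against 9.57% and 7.65% in WT. The 5 RNAs with most counts made up 69.3% and 71.0% of the counts on the 85 RNAs in def1Δ, against 64.1% and 64.2% in WT.

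Levels of different RNAs were compared per length, as normalized CPM (counts scaled by TMM to a common library size) for each kilobase. SCR1 was at 336760 ± 39365 CPM per kb in def1Δ and 156640 ± 39481 in WT (SD, n = 2 each). The level of snR17a was 194300 ± 1999 CPM per kb in def1Δ and 165050 ± 45204 in WT, understated because its annotated span of 490 bases includes an intron. The U14 RNA snR128 was at 75661 ± 891 CPM per kb in def1Δ and 41755 ± 16265 in WT. SCR1 and snR17a, neighbours at the head of this order, did not differ beyond their spread in WT, whereas SCR1 was above snR17a in both def1Δ libraries.

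**Figure D1:**
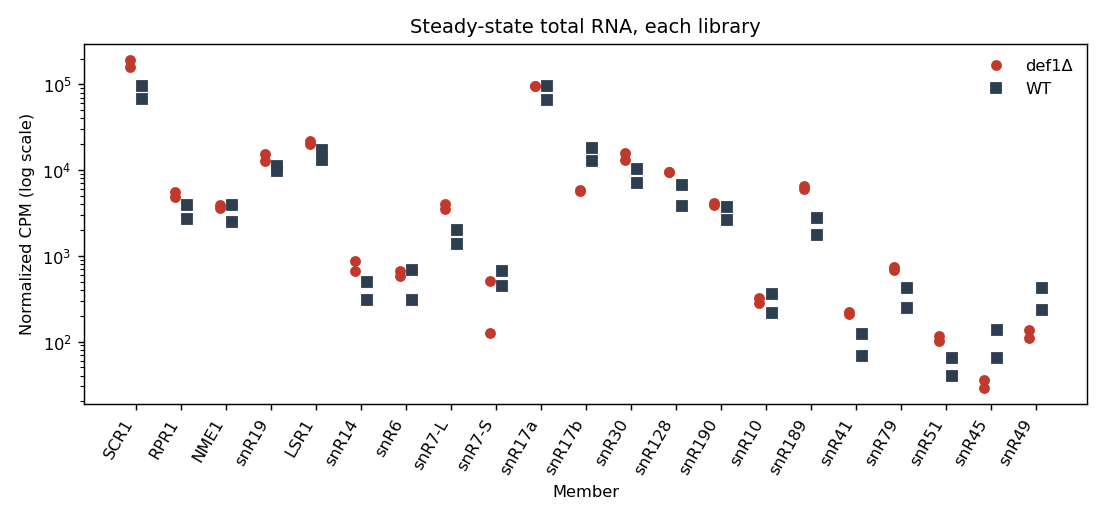
Normalized CPM (log scale) of the named RNAs in each steady-state total RNA library, def1Δ to the left of WT for each RNA, 1 point per library. The def1Δ points lie above the WT points for snR189, snR41, snR79 and snR51 and below them for snR17b, snR45 and snR49.

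The steady-state comparison asks which of these RNAs differ in amount between def1Δ and WT cells. An RNA was called at an adjusted p under 0.01 (Benjamini-Hochberg, over all 6055 genes tested) and a log2 fold change past 1 in edgeR's quasi-likelihood test. Of the 85 RNAs 79 reached 15 counts over the 4 libraries and were tested, of which 5 rose and 3 fell in def1Δ, against 8.72% of all genes that rose and 9.68% that fell. At an adjusted p under 0.05 with no fold limit 21 rose and 6 fell, against 25.3% and 23.7% of all genes. The median log2 fold change was 0.30 over the 79 RNAs and 0.04 over all genes. By class it was 0.35 for 41 box C/D RNAs, -0.02 for 29 box H/ACA RNAs and 0.44 for the 6 snRNA rows.

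The RNAs that rose were snR189, snR7-L, snR41, snR79 and snR51. The H/ACA RNA snR189, which guides pseudouridylation in both ribosomal subunits, had 6008 and 6540.4 normalized CPM in def1Δ, against 2757 and 1762 in WT, a log2 fold change of 1.47 ± 0.26 (SE; edgeR adjusted p = 0.0022). The long form of the U5 snRNA, snR7-L, had 3981 and 3469.8 in def1Δ, against 1977 and 1373 in WT (1.15 ± 0.23, adjusted p = 0.0041). The other RNAs were methylation guides of lower level. The C/D RNA snR79 had 731 and 688 normalized CPM in def1Δ, against 421 and 248 in WT (1.08 ± 0.24, adjusted p = 0.0064). The C/D RNA snR41 had 220.1 and 209 in def1Δ, against 122 and 68.1 in WT (1.17 ± 0.24, adjusted p = 0.0048), and snR51, from the same cluster, had 115 and 101 in def1Δ, against 64.8 and 39.5 in WT (1.05 ± 0.22, adjusted p = 0.0046). For each of these 5 both def1Δ libraries lay above both WT libraries.

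The RNAs that fell were snR45, snR17b and snR49, and for each both def1Δ libraries lay below both WT libraries. The second U3 copy, snR17b, had 5838 and 5638 normalized CPM in def1Δ, against 18281 and 12589 in WT (-1.43 ± 0.27, adjusted p = 0.0032). The first copy, snR17a, did not pass the test, with 94515 and 95900.0 in def1Δ and 96537 and 65212 in WT (0.24 ± 0.38, adjusted p = 0.634). The U3 copies share 36 of 441 windows of 50 bases, and the split of shared reads between them is an estimate. The H/ACA RNA snR49 had 111 and 136 normalized CPM in def1Δ, against 421 and 231 in WT (-1.40 ± 0.26, adjusted p = 0.003). The C/D RNA snR45, which guides acetylation of 18S rRNA rather than methylation, had 28.8 and 36.0 in def1Δ, against 136 and 65.0 in WT (-1.62 ± 0.31, adjusted p = 0.003).

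The other named RNAs did not pass the call. SCR1 had 161260.0 and 190320.0 normalized CPM in def1Δ, against 96339 and 67193 in WT, with no overlap, and a log2 fold change of 1.10 ± 0.42 at an edgeR adjusted p of 0.057. RPR1 had 4849.7 and 5530.2 in def1Δ and 3866 and 2652 in WT (0.67 ± 0.24), and NME1 had 3636 and 3958 in def1Δ and 3893 and 2479 in WT (0.25 ± 0.25). Among the snRNAs the log2 fold changes were 0.43 for snR19 (U1), 0.46 for LSR1 (U2), 0.92 for snR14 (U4), 0.33 for snR6 (U6) and -0.81 for snR7-S, the short form of U5. The snR7-S value rested on def1Δ replicate 1, with 125 and 513 normalized CPM in def1Δ and 668 and 449 in WT, the groups overlapping, and was -0.12 without it. The U5 forms are nested in 1 locus, and reads common to both cannot be assigned to either. Among the snoRNAs of precursor cleavage they were 0.75 for snR30, 0.86 for snR128 and 0.07 for snR10, with 0.34 for snR190, which shares a transcript with snR128. The highest values of all, 3.51 for snR61 and 2.06 for snR48 (C/D RNAs singled out after their values were seen), came from def1Δ libraries that differed widely, with 415 and 70 counts of snR61 in def1Δ against 20 and 26 in WT, and 2894 and 887 counts of snR48 in def1Δ against 539 and 413 in WT.

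The total RNA calls depended on the scaling and on single libraries, as did those over all genes. With the spike-in size factors edgeR called 0 of the 79 RNAs that rose and 0 that fell (1 and 1 at an unadjusted p under 0.05), but also 1 and 12 of all 6055 genes, so that these counts say nothing particular of the RNAs. The median log2 fold change on that scale was -0.25 over the 79 RNAs and -0.29 over all genes. The spike-in size factors were 1.28 and 1.49 for the def1Δ libraries and 0.628 and 2.36 for the WT libraries. The study normalized to the S. pombe reads, used DESeq2 and reported only mRNAs among its changed transcripts. At the same cutoffs it called many more transcripts in each direction than the 1 and 12 genes called here on the spike-in scale. The reason for this gap was not tested. DESeq2 with its own size factors called 6 RNAs that rose and 3 that fell, beside 493 and 614 of all genes. Without def1Δ replicate 1, 0 rose and 0 fell, beside 253 and 143 of all genes. Without def1Δ replicate 2, 3 rose and 0 fell, beside 206 and 101. Without WT replicate 1, 23 rose and 2 fell, beside 522 and 525, and without WT replicate 2, 2 rose and 6 fell, beside 677 and 654.

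In labeled RNA the share of counts on the 85 RNAs was lower in def1Δ than in WT at every labeling time. At 6 min it was 2.06% and 1.83% in def1Δ, against 4.30% and 4.84% in WT. At 9 min it was 2.37% and 2.77% in def1Δ, against 5.12% and 9.57% in WT, where replicate 2 stood apart from replicate 1. The single libraries at 12 min had 2.78% in def1Δ and 8.77% in WT. The share thus stayed under 3% in def1Δ up to 12 min. At 24 min it was 4.80% and 6.24% in def1Δ, against 15.4% and 15.2% in WT, and at 90 min 11.9% and 12.9% in def1Δ, against 25.3% and 28.6% in WT. The strains did not overlap at any time.

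**Figure D2:**
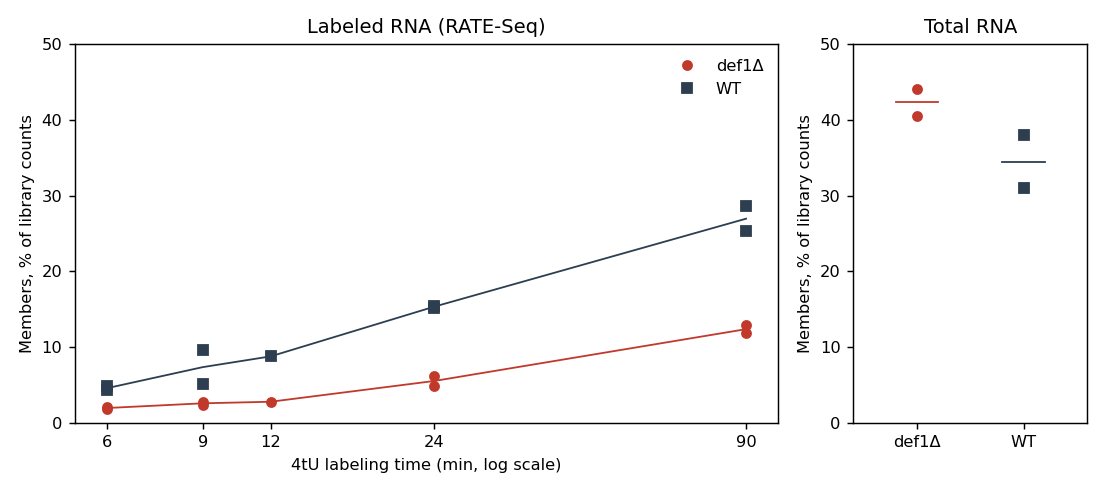
Percent of each library's counts on the 85 RNAs, by 4tU labeling time in min and in total RNA, with 1 point per library, for def1Δ and WT. At 90 min the def1Δ libraries are at 11.9% and 12.9%, below the WT libraries at 25.3% and 28.6%, while in total RNA the def1Δ libraries are at 40.5% and 44.1%, above WT at 38.0% and 30.9%.

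Of the 85 RNAs 74 reached 15 counts over the 18 RATE-Seq libraries and were tested in 1 fit. At 6 min 37 of the 74 were lower in def1Δ and 0 higher, against 9.68% of all 6501 genes that were lower and 10.9% higher. At 9 min 46 were lower and 0 higher, against 11.4% and 13.4% of all genes, at 24 min 42 and 0, against 12.4% and 14.9%, and at 90 min 55 and 0, against 13.3% and 15.6%. No RNA was higher at an unadjusted p under 0.05 in edgeR at any of the 4 times, and DESeq2 also called 0 higher. The median log2 fold change over the 74 at 6, 9, 24 and 90 min was -1.26, -1.54, -1.56 and -2.03, against -0.05, -0.02, 0.02 and 0.00 over all genes. Without WT 9 min replicate 2 the count at 9 min was 27 and the median -0.82.

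By class, 24, 27, 26 and 27 of 29 box H/ACA RNAs were lower at 6, 9, 24 and 90 min, 8, 10, 8 and 19 of 36 box C/D RNAs and 3, 6, 5 and 6 of the 6 snRNA rows. The box H/ACA medians were -1.52, -1.87, -1.80 and -2.08, and the box C/D medians -0.97, -1.24, -0.80 and -1.97. Among the 74, 36 were lower at all 4 times, of which 24 were box H/ACA and 7 box C/D, and 18 were lower at none, of which 16 were box C/D. Many box C/D RNAs had few labeled counts: 18 of the 36 tested had a mean of at least 100 counts a library, against 28 of the 29 box H/ACA RNAs. Over the 55 RNAs with such a mean, the median was -1.34 at 6 min and -1.86 at 90 min. The median over the 74 at 90 min also moved with single libraries. It was -1.70 without def1Δ replicate 2, -2.23 without def1Δ replicate 1, -1.60 without WT replicate 2 and -2.16 without WT replicate 1. The def1Δ replicates differed for short RNAs at 90 min. Those of 78 to 99 bases held 0.408% and 0.118% of the counts on these RNAs in def1Δ, against 0.288% and 0.471% in WT.

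**Figure D3:**
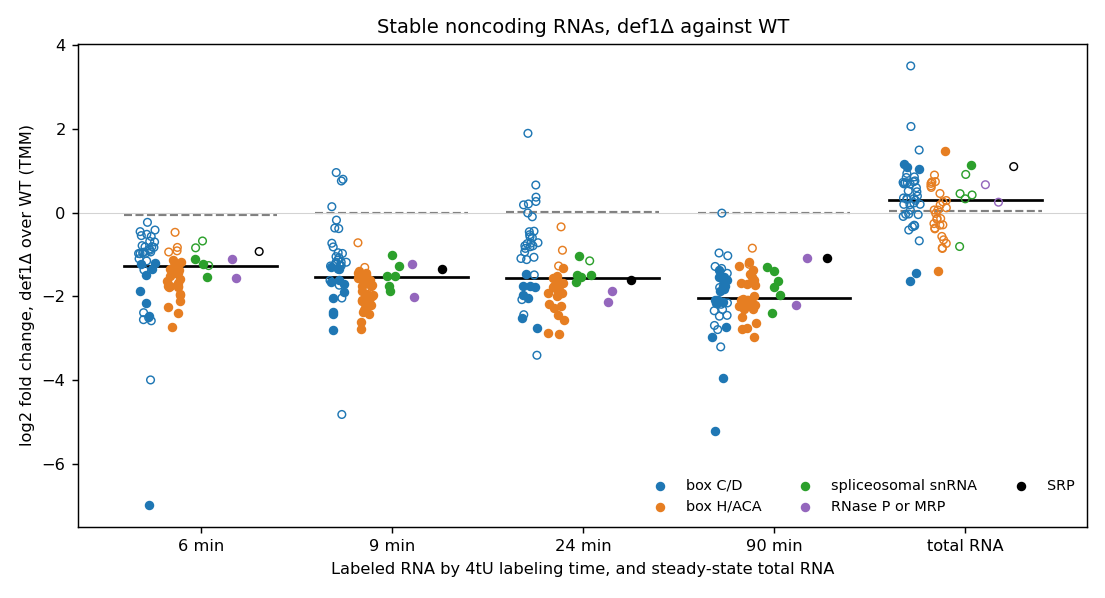
Log2 fold change of each tested RNA, def1Δ over WT, in total RNA and in labeled RNA at 4 labeling times, by class, with filled points called at an adjusted p under 0.01 and a log2 fold change past 1. Black lines are medians over these RNAs (0.30 in total RNA and -1.26, -1.54, -1.56 and -2.03 at 6, 9, 24 and 90 min), and dashed grey lines are medians over all genes.

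The RNAs of the processing and targeting particles were lower in labeled def1Δ RNA. SCR1 had 6422 and 5496 normalized CPM at 6 min in def1Δ, against 10514 and 12124 in WT. At 90 min it had 46850.0 and 53985 in def1Δ, against 104700.0 and 108660.0 in WT. Its log2 fold change was -0.93 ± 0.22 at 6 min, short of the fold limit, and -1.35 ± 0.22, -1.60 ± 0.22 and -1.08 ± 0.22 at 9, 24 and 90 min, which were called. RPR1 had 1855 and 2209 normalized CPM at 90 min in def1Δ, against 4049 and 4571 in WT, and was lower at all 4 times (-1.10, -1.23, -1.87 and -1.08 at 6, 9, 24 and 90 min). NME1 had 928 and 985 normalized CPM at 90 min in def1Δ, against 3965 and 4845 in WT, and was lower at all 4 times (-1.57 ± 0.23, -2.02 ± 0.24, -2.13 ± 0.23 and -2.20 ± 0.24). The polymerase III transcript snR6 was lower at 9 and 90 min (-1.74 and -1.97), with -1.26 at 6 min and -1.15 at 24 min that were not called.

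Among the snRNAs of the other spliceosomal particles, LSR1 (U2) had 2746 and 2351 normalized CPM at 6 min in def1Δ, against 4368 and 4739 in WT, a log2 fold change of -0.84 ± 0.14 that missed the fold limit. At 90 min LSR1 had 8479 and 8852 in def1Δ, against 22272 and 23116 in WT, and was lower (-1.39 ± 0.14, edgeR adjusted p = 2.7e-07). The groups were separate at both times. The U1 RNA snR19 was lower at all 4 times (-1.11, -1.50, -1.65 and -1.76 at 6, 9, 24 and 90 min), as were the U4 RNA snR14 (-1.53, -1.86, -1.49 and -2.40) and snR7-L (-1.22, -1.52, -1.55 and -1.63). The short U5 form snR7-S was lower at 9, 24 and 90 min (-1.28, -1.03 and -1.30), with -0.67 at 6 min.

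Among the snoRNAs of precursor cleavage snR17b had the largest falls. It had 172 and 165 normalized CPM at 6 min in def1Δ, against 871 and 1006 in WT, and 1642 and 1752 at 90 min in def1Δ, against 11722 and 14878 in WT. Its log2 fold changes at 6, 9, 24 and 90 min were -2.48 ± 0.27, -2.80 ± 0.27, -2.74 ± 0.27 and -2.97 ± 0.28. The copy snR17a had 26382 and 29622 normalized CPM at 90 min in def1Δ, against 81280.0 and 91702 in WT, and was lower at all 4 times (-1.35, -1.66, -1.74 and -1.63). Both U3 copies were thus lower in labeled RNA, while only snR17b passed the test in total RNA. The RNA snR30, needed to release the 18S rRNA precursor, was lower at 9, 24 and 90 min (-1.49, -1.56 and -1.17), with -0.91 at 6 min. The U14 RNA snR128 was lower at 9 and 90 min (-1.30 and -1.86), with -0.98 and -1.12 at 6 and 24 min, and snR190 (-1.48, -1.90, -2.03 and -1.38) and snR10 (-1.74, -2.00, -1.80 and -1.28) were lower at all 4 times.

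Of the RNAs called lower, the 6 with the largest fitted fall at each time are named here. Fitted values further from 0 belonged to box C/D RNAs of few counts that were not called, and are not ranked. The pseudouridylation guides snR33 and snR43 were among the 6 at each of the 4 times. At 90 min snR33 had 53.1 and 47.9 normalized CPM in def1Δ, against 317 and 371 in WT (-2.77 ± 0.28). At 90 min snR43 had 115 and 115 in def1Δ, against 639 and 918 in WT (-2.76 ± 0.30). Also among the 6 called were snR80 (-2.74 at 6 min and -2.97 at 90 min), snR49 (-2.77 at 9 min and -2.87 at 24 min), snR11 (-2.37 at 9 min and -2.57 at 24 min), all H/ACA guides, and the C/D RNAs snR45 (-2.16 at 6 min and -2.51 at 24 min) and snR18 (-2.41 at 9 min). The methylation guide snR68 had 0 counts in the def1Δ libraries at 6 min, against 25 in the WT libraries, and was at least 11.5-fold lower with a floor of 3 counts over the group. At 90 min snR68 had 8 and 1 counts in def1Δ, against 30 and 18 in WT. The strains overlapped at the times between. At 9 min snR68 had 12 and 0 counts in def1Δ, against 0 and 8 in WT. At 24 min it had 4 and 5 in def1Δ, against 8 and 2 in WT. The methylation guide snR60 had 2 counts at 90 min over the def1Δ libraries, against 30 over the WT libraries, a ratio of 0.0221 after scaling to library size (95% exact interval 0.00256 to 0.0870, counting error only).

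**Figure D4:**
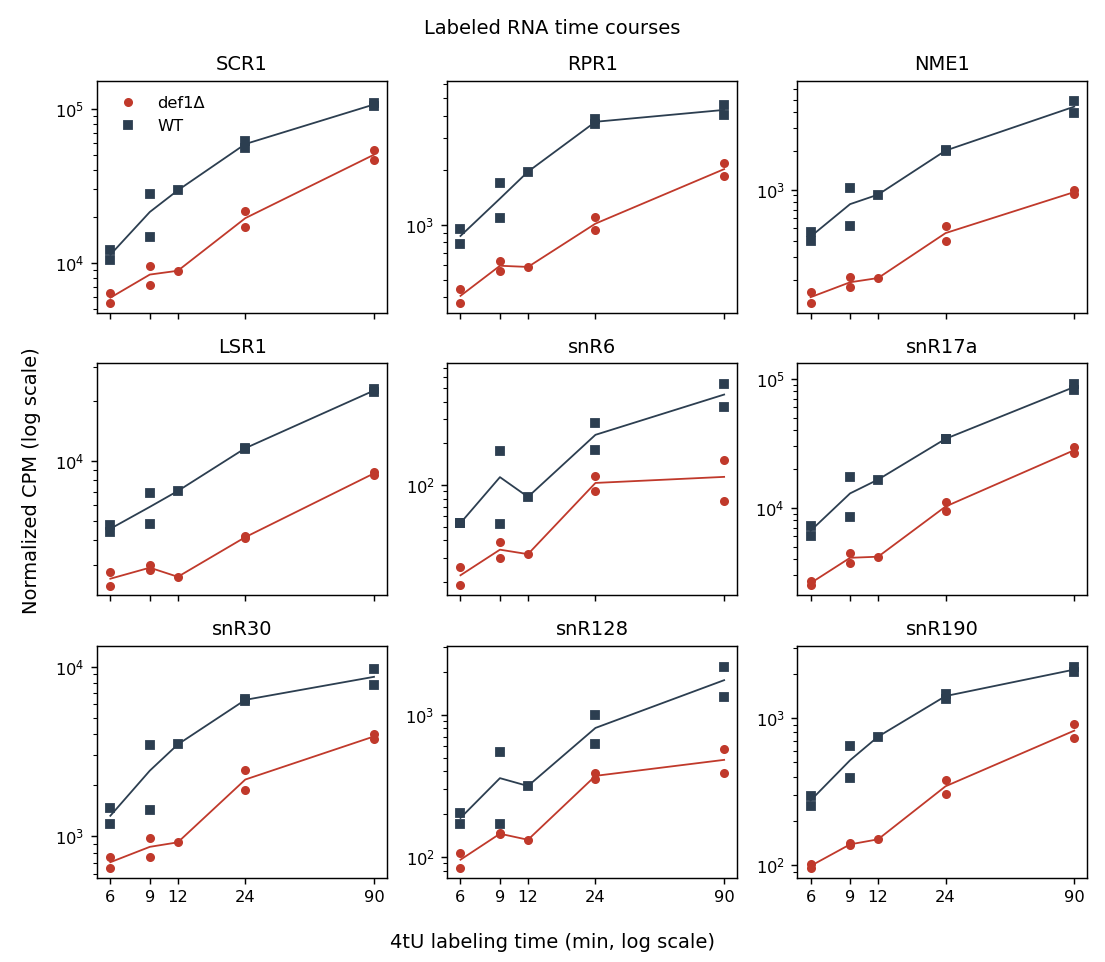
Normalized CPM (log scale) of 9 named RNAs against 4tU labeling time in min (log scale), 1 point per library, for def1Δ and WT. In each panel every def1Δ point lies below the WT points of its time, as for SCR1 at 90 min, with 46850.0 and 53985 in def1Δ against 104700.0 and 108660.0 in WT.

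The size of the labeled differences depended on the scale. TMM sets the typical gene near no change, whereas under scaling to the S. pombe reads the all-gene median was itself 0.27, 0.19, 1.04 and 1.18 at 6, 9, 24 and 90 min. On that scale the median over the 74 RNAs was -0.93, -1.35, -0.59 and -0.84, and 30, 49, 11 and 18 were lower, with 2 higher at 24 min and 0 at the other times. Of all 6501 genes 285, 492, 127 and 116 were lower and 1201, 1285, 3026 and 3360 higher on that scale. The distance of the 74 RNAs from the typical gene was -1.21, -1.52, -1.58 and -2.03 with TMM. With the spike-in it was -1.20, -1.54, -1.63 and -2.02. A change of scale moves all genes of a comparison nearly alike, so the likeness of these distances is no separate result. SCR1 and RPR1 at 90 min had values of 0.09 and 0.08 with the spike-in, so their sign changed, as did that of snR30 at 90 min and of snR7-S at 24 min.

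The change between 6 and 90 min of labeling asks how far an RNA went on gaining label relative to the typical gene. In def1Δ 45 of the 74 RNAs rose and 0 fell, against 18.9% of all genes that rose and 19.9% that fell. In WT 51 rose and 0 fell, against 11.1% and 10.8% of all genes. The median over the 74 was 2.31 in def1Δ and 2.63 in WT on the log2 scale, against -0.12 in def1Δ and -0.16 in WT over all genes. None fell at an unadjusted p under 0.05 in edgeR in either strain, and DESeq2 called 0 that fell. Without def1Δ 90 min replicate 1, 1 RNA fell in def1Δ.

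By class, 28 of 29 box H/ACA RNAs rose in def1Δ and all 29 in WT, all 6 snRNA rows rose in both strains, and 8 of 36 box C/D RNAs rose in def1Δ and 13 in WT. Among the RNAs called, the largest rises in def1Δ were those of snR10 (4.12 ± 0.32), snR83 (3.76 ± 0.33), snR36 (3.72 ± 0.39), snR3 (3.68 ± 0.39), snR34 (3.65 ± 0.24) and snR17a (3.42 ± 0.24). All but snR17a are box H/ACA RNAs. The largest called rises in WT were those of snR36 (4.44 ± 0.38), snR3 (4.38 ± 0.39), snR83 (4.33 ± 0.33), snR46 (3.93 ± 0.20), snR17b (3.82 ± 0.29) and snR17a (3.70 ± 0.24).

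All 15 RNAs named in every comparison rose in both strains. SCR1 rose by 3.08 ± 0.24 in def1Δ and 3.24 ± 0.24 in WT, RPR1 by 2.32 in def1Δ and 2.31 in WT, and NME1 by 2.71 in def1Δ and 3.35 in WT. Of the snRNAs, LSR1 rose by 1.77 in def1Δ and 2.32 in WT, snR19 by 2.30 in def1Δ and 2.95 in WT, snR14 by 2.40 in def1Δ and 3.28 in WT, snR6 by 2.37 in def1Δ and 3.08 in WT, snR7-L by 2.76 in def1Δ and 3.17 in WT and snR7-S by 2.85 in def1Δ and 3.47 in WT. LSR1 had the smallest rise of the snRNA rows in both strains. Of the remaining snoRNAs, snR30 rose by 2.46 in def1Δ and 2.72 in WT, snR128 by 2.34 in def1Δ and 3.22 in WT and snR190 by 3.05 in def1Δ and 2.95 in WT.

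The difference between the strains in this rise was tested as an interaction, and 0 of the 74 RNAs were called in either direction by edgeR or DESeq2, against 5.86% of all genes with the larger rise in def1Δ and 3.28% with the smaller. At an unadjusted p under 0.05 edgeR gave 0 with a larger and 3 with a smaller rise in def1Δ. The median difference was -0.52 over the 74 and 0.01 over all genes, and with the spike-in 0.32 and 0.85.

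On the spike-in scale, the level at 6 min was set against that at 90 min. Over the 55 RNAs with a mean of at least 100 counts the median share was 9.86% in def1Δ and 12.5% in WT. Taking each replicate number alone, it was 9.39% and 9.66% in def1Δ, against 17.5% and 8.95% in WT, so the strains overlapped. On the TMM scale it was 17.5% in def1Δ and 12.3% in WT, the opposite order. Box H/ACA RNAs had medians of 8.37% in def1Δ and 10.3% in WT, snRNA rows 10.8% in def1Δ and 11.4% in WT, and box C/D RNAs 25.6% in def1Δ and 23.9% in WT. SCR1 stood at 6.70% in def1Δ and 10.7% in WT. LSR1 stood at 16.6% in def1Δ and 20.3% in WT. An RNA lost by growth dilution alone, at the study's growth rates, would stand at 8.03% in def1Δ and 9.03% in WT. On the spike-in scale 19 of the 55 RNAs in def1Δ and 13 of the 55 in WT lay below these shares. The lowest stood at 3.26% in def1Δ and 4.54% in WT. Why these RNAs lay below was not tested.

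The shorter RNAs tended to have the lower ratio of labeled to total RNA. Some short RNAs still had many labeled counts, such as snR40 (97 bases), a methylation guide singled out after its values were seen. At 90 min snR40 had 5222 and 1664 counts in def1Δ, against 3781 and 5779 in WT. Its log2 ratio of labeled RNA at 90 min to total RNA was -4.64 in def1Δ and -2.17 in WT. For 22 RNAs of 78 to 99 bases, all box C/D, the median log2 ratio of labeled RNA at 90 min to total RNA (normalized CPM plus 1) was -5.89 in def1Δ and -3.96 in WT. For 12 RNAs of 101 to 126 bases it was -4.49 in def1Δ and -2.00 in WT, for 19 of 136 to 197 bases -2.46 in def1Δ and -0.58 in WT, and for 26 of 201 to 1175 bases -1.76 in def1Δ and 0.06 in WT. The median was higher in each longer class. The tables were normalized separately, so the order along the length axis is described and not the level. Over the 79 RNAs Spearman's rho of this ratio with length was 0.64 in def1Δ and 0.79 in WT, and with the number of uridines 0.63 in def1Δ and 0.77 in WT. All points share the same libraries, and length and uridine number cannot be told apart here.

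The C/D RNAs snR52 and snR24, shown above and singled out after their values were seen, are examples. The 92-base snR52 had 8390 and 9803 counts in def1Δ total RNA, against 6064 and 4548 in WT, but 4 and 0 counts at 90 min in def1Δ, against 2 and 5 in WT. The 89-base snR24 had 14920 and 19888 counts in def1Δ total RNA, against 10689 and 7713 in WT, and 12 and 2 at 90 min in def1Δ, against 14 and 12 in WT. RNAs of 78 to 99 bases made up 3.54% and 3.11% of the counts on these RNAs in def1Δ total RNA, against 3.63% and 3.02% in WT, and 0.408% and 0.118% at 90 min in def1Δ, against 0.288% and 0.471% in WT. All 11 RNAs with too few labeled counts to test were box C/D RNAs. Of the U5 forms, snR7-L exceeded snR7-S in every total RNA library, and snR7-S exceeded snR7-L in every labeled library.

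**Figure D5:**
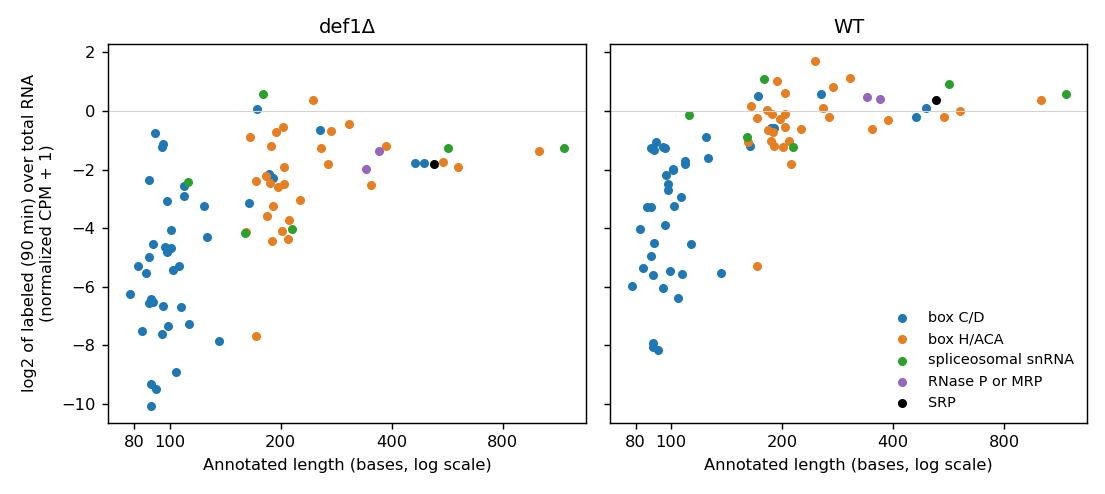
Log2 ratio of labeled RNA at 90 min to total RNA (normalized CPM plus 1) against length in bases (log scale) for 79 RNAs, by class, def1Δ left and WT right. The ratio is lowest for RNAs of 78 to 99 bases (median -5.89 in def1Δ and -3.96 in WT) and highest for those of 201 to 1175 bases (-1.76 in def1Δ and 0.06 in WT).

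Of the 85 RNAs 8 lie in introns of protein genes, and in total RNA 7 of the 8 host mRNAs fell in def1Δ, beside 9.68% of all genes. Of the 7 intronic RNAs tested 0 were called by edgeR, a count that shares of 8.72% and 9.68% over all genes would also give. The log2 fold changes were -0.34 for snR18 and -1.25 for its host EFB1, a translation elongation factor, and 0.84 for snR24 and -1.54 for ASC1, a ribosomal protein. They were 0.70 for snR44 and -1.20 for RPS22B, -0.09 for snR39 and -1.62 for RPL7A, and 0.30 for snR59 and -1.06 for RPL7B. For snR38, which had few counts, the value was 0.20 ± 0.69 (SE), and for its host TEF4 -1.49. IMD4 fell as well (-2.05), and its snR54 was too low to test. NOG2, at -0.43, was the host not called, with snR191 at -0.57. The difference between an RNA and its host was not tested. In labeled RNA 1, 1, 1 and 3 of the 8 hosts were lower at 6, 9, 24 and 90 min. The shares over all genes were 9.68%, 11.4%, 12.4% and 13.3%. In the input RNA of ribosome profiling 2 of the 8 hosts were lower, beside 3.82% of all genes. In the cluster of 7 RNAs from snR72 to snR78 (chrXIII:297278-298651) the 6 tested had log2 fold changes between -0.30 and 0.94 in total RNA and between -3.21 and -0.01 at 90 min.

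The genes for proteins that make, bind or process these RNAs were taken as lists of 94 genes. In total RNA 12 fell and 1 rose in def1Δ, beside 9.68% and 8.72% of all genes, with a median log2 fold change of -0.34. Of 4 box C/D core genes 3 fell, SNU13 (-2.10 ± 0.16), NOP1 (-2.00 ± 0.21), the methyltransferase, and NOP56 (-1.13 ± 0.13). Of 4 box H/ACA core genes 3 fell, GAR1 (-1.92 ± 0.13), NHP2 (-1.30 ± 0.15) and NOP10 (-1.08 ± 0.15). The study listed ribosome biogenesis and translation among the terms of its upregulated genes. These core genes, and the ribosomal protein hosts above, fell here with TMM, and the difference in direction was not tested. With the spike-in size factors 12 of all 6055 genes fell in total RNA. Of 16 Sm and Lsm genes SMD1 (-1.12) and LSM5 (-1.04) fell, of 19 genes for 3' end processing and surveillance LRP1 (-1.83), an exosome cofactor, and of 11 RNase P and MRP protein genes POP8 (-1.37). Of 19 genes for RNA polymerase III and its factors the polymerase subunits RPC11 (-3.08) and RPO31 (-1.05) fell and the TFIIIC subunit TFC3 (1.17) rose. None of 9 snoRNP assembly, 3 cap binding, 6 SRP protein and 3 telomerase protein genes was called by edgeR. In labeled RNA at 6, 9, 24 and 90 min 17, 22, 14 and 9 of the 94 fell, beside 9.68%, 11.4%, 12.4% and 13.3% of all genes, and 8, 8, 18 and 9 rose, beside 10.9%, 13.4%, 14.9% and 15.6%. Their medians were -0.19, -0.15, 0.12 and -0.07. In the input RNA of ribosome profiling, a separate set of 3 def1Δ and 3 WT libraries with no rows for the 85 RNAs, 1 of 93 list genes tested was lower in def1Δ, POP5 (-1.28 ± 0.16), and 0 higher, against 3.82% and 5.33% of all 6360 genes. There the box C/D and box H/ACA core medians were -0.69 and -0.46.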

How the data were processed

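Steady-state and RATE-Seq RNA was depleted of rRNA and made into stranded libraries. The authors deposited estimated counts per gene (an expected count) for both, made from reads mapped with STAR and counted with RSEM 1.2.28 on the R64 build per the study's methods. For the profiling input RNA the authors deposited whole-number counts, and HISAT2 and featureCounts are named per the labels with no role given. The 12 min replicate 1 libraries, labelled as below the quality limits, the footprint libraries and the dhh1 libraries were not analysed here.

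Estimated counts were rounded, genes under 15 counts over the libraries of a table dropped, and the rest fitted with edgeR 4.0.16 (R 4.3.3; quasi-likelihood, TMM) over 4 steady-state, 18 RATE-Seq or 6 input libraries, with Benjamini-Hochberg adjustment over all genes. Depth was 9954503 to 14243535 counts in total RNA, 6026474 to 16318100 in labeled RNA and 14894073 to 45654269 in input RNA. The fit was tested on simulated data: of 200 genes changed by 2 on the log2 scale, 200 were recovered for total RNA (6055 genes) and 194 for labeled RNA at 6 min (6501 genes). Alternatives were S. pombe spike-in size factors, TMM on nuclear protein genes only, DESeq2 1.42.0, and other count filters and cutoffs. A replicate block, fewer libraries in the fit and leaving out each library were also tried. The spike-in size factors were recovered as the ratio of the deposited counts to the authors' normalized reads.

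The RNAs and gene lists were chosen with earlier results of these data known. Named in every comparison were SCR1, RPR1, NME1, the snRNAs, snR17a, snR17b, snR30, snR128, snR190 and snR10, then up to 6 called RNAs with the largest rise and 6 with the largest fall, and up to 3 called genes per protein list and direction in total RNA; TLC1, also in the rule, was not analysed here. Intervals and floors cover counting error only.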

Additional observations from a re-analysis of the deposited data

Results flagged for a closer look

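For 2 RNAs the rise between 6 and 90 min of labeling differed between the strains at an adjusted p under 0.05 in edgeR's interaction test, short of the limits used for calls. The U2 snRNA LSR1 rose by 1.77 in def1Δ and 2.32 in WT on the log2 scale, a difference of -0.55 ± 0.19 (adjusted p = 0.041). The box H/ACA RNA snR46 rose by 3.19 in def1Δ and 3.93 in WT, a difference of -0.74 ± 0.25 (adjusted p = 0.037). With the spike-in size factors 0 RNAs had a smaller rise in def1Δ at that level and 2 a larger one.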

How the results depend on the processing

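Of the alternative values of counts and medians 216 stayed within the limits set for them and 26 moved. Among the other values, nearly all of single RNAs, 1735 kept their side of the threshold and 18 gained the call. A further 4 changed sign while called in either fit, and the rest lost the call. A change of sign with no call in either fit was counted as kept. With the spike-in size factors 0 RNAs rose and 0 fell in total RNA (all genes 1 and 12), 2 were higher and 11 lower at 24 min (all genes 3026 and 127), and 18 were lower at 90 min (all genes 116). The 4 sign changes with a call were snR7-S at 24 min (0.0051) and SCR1 (0.092), RPR1 (0.084) and snR30 (0.00036) at 90 min. All came with the spike-in, and the cause was not tested. At an adjusted p under 0.05 with no fold limit 21 RNAs rose and 6 fell in total RNA, and 2 had a smaller rise with time in def1Δ.

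Leaving out each library gave 0 to 23 that rose and 0 to 6 that fell in total RNA, 27 to 56 lower at 9 min, 0 to 1 that fell between 6 and 90 min in def1Δ, and 1 to 2 input list genes lower (2 without WT replicate 1). DESeq2 called 2 input list genes lower. Same-numbered def1Δ and WT libraries had correlated deviations of 0.04 in total RNA, -0.05 to 0.31 in labeled RNA and 0.09 to 0.43 in input RNA, so the numbers were not taken as pairs. With the replicate number as a block 8 RNAs rose in total RNA and 2 input list genes were lower.

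The median share of the 90 min level reached at 6 min was 11.4% over the 74 RNAs in def1Δ, 20.2% with TMM, 9.86% over RNAs with a mean of at least 100 counts (chosen after seeing the data), and 10.1% to 12.7% with 1 library left out (added after seeing the data). Depth limits the box C/D RNAs in labeled RNA, of which 11 could not be tested.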
